A study of Homo sapiens with 6 samples.

Results

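The 39 genes described here encode lysosomal hydrolases, lysosomal membrane proteins, subunits of the proton pump and a pair of transcription factors. They were taken from a list of gene names, which was chosen with earlier results of these data known. They comprise 25 hydrolases, 2 lumenal cofactors, 5 membrane proteins, 5 subunits of the vacuolar proton pump (V-ATPase) and 2 transcription factors, out of 19676 genes with a probe set of their own on the arrays. The RNA came from A375, a human melanoma line that carries mutant BRAF, and was hybridised to 6 Affymetrix arrays, 1 for each treatment and time. The 6 h treatments were 10 µM vemurafenib, 10 µM vemurafenib with 100 nM AT9283, 100 nM AT9283 alone, and the solvent DMSO, and those of 16 h were 10 µM vemurafenib and DMSO. Vemurafenib blocks mutant BRAF and thereby the ERK pathway downstream of it. AT9283 is a multikinase inhibitor whose targets include the Aurora kinases and JAK2.

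Lysosomes are acidic compartments that break down proteins, glycans, sulfated sugars and lipids delivered by endocytosis and autophagy. The proton pump keeps the lumen acidic, the membrane proteins protect the boundary and move ions and products across it, and the soluble hydrolases do the digestion. Many of these genes carry an E-box called the CLEAR element near their start site, which is bound by TFEB, TFE3 and their relative MITF, the master regulator of melanocytes. TFEB and TFE3 are held in the cytoplasm when the kinase mTORC1 is active on the lysosome surface, and MITF family members are also targets of ERK signalling.

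Of the 39 genes, 38 had a usable probe set, and 34 reached a log2 intensity of at least 6 (an intensity of 64), called the floor here, on at least 1 array of every comparison. FUCA1 (on the probe set left to it), IDUA, ARSA and TFEB lay below the floor, and GAA had no usable probe set because its row was among 1118 whose 6 h values were misaligned. The median gene intensity per array ranged from 44.3 to 50.4. DUSP6, a phosphatase induced by ERK, read 4.28 with vemurafenib, 4.39 with both drugs and 4.38 with vemurafenib at 16 h, against 9.50, 9.35 and 9.60 on the arrays without vemurafenib. Of 9 melanoma markers measured, MITF, SOX10, S100B and PRAME reached the floor, S100B on the 16 h vemurafenib array alone (6.15). The pigment cell genes MLANA, PMEL, TYR and TYRP1 lay below it, as did S100A1. Of 5 keratinocyte markers KRT14, KRT10 and KRT5 reached the floor, KRT5 on the 16 h vemurafenib array alone (6.40), and KRT1 and DSG3 did not. Their summed intensity was 1883, 1904 and 2199 on the 3 vemurafenib arrays, against 1796, 1730 and 1772 on their controls, with KRT14 differing by 1.38 and KRT5 by 1.24 at 16 h, and their part in the results was not tested. Of 5 fibroblast, 4 leukocyte and 4 endothelial markers measured, COL1A1 and LYZ alone reached the floor.

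Promoter sequences of 27 of the 39 genes were in the RefSeq table of build GRCh38.p14, each from 250 bases before to 50 bases after the start site. The core E-box CACGTG, which reads the same on both strands, was found in 10 of the 27 (37.0%), against 7.43% of 27305 promoters. The longer palindrome TCACGTGA, which contains that core, was found in 7 (25.9%, against 1.04%), namely those of CTSA, GAA, GALNS, LAMP1, CLN3, MCOLN1 and ATP6V0D1. CTSB, HEXA, MANBA, NAGLU, ARSA, SGSH, ASAH1, PSAP, LAMP2, ATP6V1A, ATP6V1B2 and ATP6V1H had no entry. Below, NEU1, CTSA and GALNS are shown as genes with CACGTG that were higher with vemurafenib at 16 h. LAMP1 is shown as the promoter with 6 copies of CACGTG and MCOLN1 as a gene with CACGTG that was not higher. CTSL is shown as a gene with no CACGTG in this window that was lower. Other forms of the E-box were not searched. They were picked partly by their 16 h difference, so they are examples and not a comparison. GRN, TPP1, SMPD1 and SCARB2, which are not shown, had no CACGTG in this window and were higher at 16 h. The regions are chr6:31862772-31863071 (minus strand) for NEU1, chr20:45891085-45891384 (plus strand) for CTSA, chr16:88856898-88857197 (minus strand) for GALNS, chr13:113296989-113297288 (plus strand) for LAMP1, chr19:7522374-7522673 (plus strand) for MCOLN1 and chr9:87725869-87726168 (plus strand) for CTSL. Capitals mark the E-box core, or all of TCACGTGA where it is complete.
NEU1: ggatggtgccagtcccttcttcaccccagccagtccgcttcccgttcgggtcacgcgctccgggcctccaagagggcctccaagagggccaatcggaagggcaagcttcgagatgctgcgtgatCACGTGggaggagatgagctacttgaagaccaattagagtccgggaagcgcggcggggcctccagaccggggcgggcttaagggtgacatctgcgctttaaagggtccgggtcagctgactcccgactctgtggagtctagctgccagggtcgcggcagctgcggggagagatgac
CTSA: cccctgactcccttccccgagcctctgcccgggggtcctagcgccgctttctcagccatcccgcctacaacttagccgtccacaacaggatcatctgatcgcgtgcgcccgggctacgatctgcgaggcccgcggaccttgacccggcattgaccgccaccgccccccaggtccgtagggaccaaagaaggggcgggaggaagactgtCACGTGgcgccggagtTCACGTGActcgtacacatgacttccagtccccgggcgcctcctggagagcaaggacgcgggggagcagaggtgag
GALNS: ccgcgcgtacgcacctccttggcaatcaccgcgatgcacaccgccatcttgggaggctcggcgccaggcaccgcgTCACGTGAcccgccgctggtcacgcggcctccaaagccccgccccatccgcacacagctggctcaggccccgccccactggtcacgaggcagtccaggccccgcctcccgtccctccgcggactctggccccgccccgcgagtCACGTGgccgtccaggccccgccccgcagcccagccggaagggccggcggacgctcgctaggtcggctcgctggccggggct
LAMP1: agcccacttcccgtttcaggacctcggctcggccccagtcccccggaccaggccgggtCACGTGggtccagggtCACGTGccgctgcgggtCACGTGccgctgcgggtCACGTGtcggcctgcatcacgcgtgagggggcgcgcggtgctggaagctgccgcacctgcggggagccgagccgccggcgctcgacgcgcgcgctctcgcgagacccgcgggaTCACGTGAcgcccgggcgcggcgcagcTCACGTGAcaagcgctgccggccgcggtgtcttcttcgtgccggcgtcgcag
MCOLN1: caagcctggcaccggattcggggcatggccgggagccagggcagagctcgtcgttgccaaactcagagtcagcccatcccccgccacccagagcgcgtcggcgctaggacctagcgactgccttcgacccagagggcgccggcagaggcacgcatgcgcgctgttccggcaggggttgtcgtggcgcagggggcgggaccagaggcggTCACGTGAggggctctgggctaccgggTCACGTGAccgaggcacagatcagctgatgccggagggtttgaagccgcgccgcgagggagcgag
CTSL: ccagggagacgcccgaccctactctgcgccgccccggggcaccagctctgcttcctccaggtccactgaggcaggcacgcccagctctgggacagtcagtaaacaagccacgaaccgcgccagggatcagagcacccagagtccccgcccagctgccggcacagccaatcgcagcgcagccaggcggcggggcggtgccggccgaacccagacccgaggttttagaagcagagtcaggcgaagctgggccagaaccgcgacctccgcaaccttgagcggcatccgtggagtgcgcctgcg

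The design sets vemurafenib, AT9283 and their combination against DMSO. Vemurafenib was compared with its control in 3 pairs of arrays that share no array, which were vemurafenib against DMSO at 6 h, both drugs against AT9283 at 6 h, and vemurafenib against DMSO at 16 h. A difference between 2 single arrays has no replicate check and no test, and genes are counted as higher or lower here only from a size of 0.5 in log2 units (1.41-fold), with the higher array at the floor. Smaller differences are given by their value and sign. Across the 3 pairs the mean vemurafenib effect was tested with limma on all 9707 genes at the floor, where the residual is the change of the effect between pairs, on 2 degrees of freedom, and not the spread between replicates.

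At 16 h of vemurafenib, 13 of the 34 genes were higher and 2 were lower, whereas at 6 h none reached 0.5 in either direction. Among all genes at the floor, 16.0% were higher and 18.0% lower at 16 h, and 4.56% were higher and 6.82% lower at 6 h. With each array centred on its median, 10 of the 34 were higher and 2 lower at 16 h, beside 11.4% and 24.3% of all genes, and the members' median was 0.24, beside -0.14. The number higher was 8 of 28 (13.3% of all genes) with the mean of a gene's probe sets and 7 of 20 (16.1%) without probe sets marked as shared. CTSB, CTSD and SCARB2 fell short of 0.5 with centring, CTSB, HEXA, ASAH1 and SCARB2 with the mean of probe sets, and CTSB and ASAH1 without shared ones. Conversely, LAMP2 was higher with the mean of probe sets (0.76), and IDS without shared ones (0.52). In arrays of whole cultures, more cells that express a gene and more of its RNA per cell cannot be told apart. The median difference of the 34 genes was 0.37 at 16 h and 0.14 at 6 h, beside -0.00032 and 0.02 for all genes. Differences above 0 were found in 29 of the 34 at 16 h and 24 at 6 h, beside 48.9% and 53.8% of all genes. Over all 38 genes with a probe set, whatever their level, the medians were 0.36 and 0.14. MANBA and SMPD1 were at the floor at 16 h on the vemurafenib array alone, so they could enter that count only as higher. A difference of at least 1 at 16 h was seen in NEU1 and GRN, and in 5.19% of all genes in that direction, while none was lower by 1, beside 5.79%. At 16 h, 18 of the 34 differences lay above the highest difference between the DMSO arrays of 16 h and 6 h among these genes (0.35, NEU1), beside 22.9% of all genes, and 2 lay below the lowest (-0.45, SGSH), beside 20.2%.

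**Figure D1:**
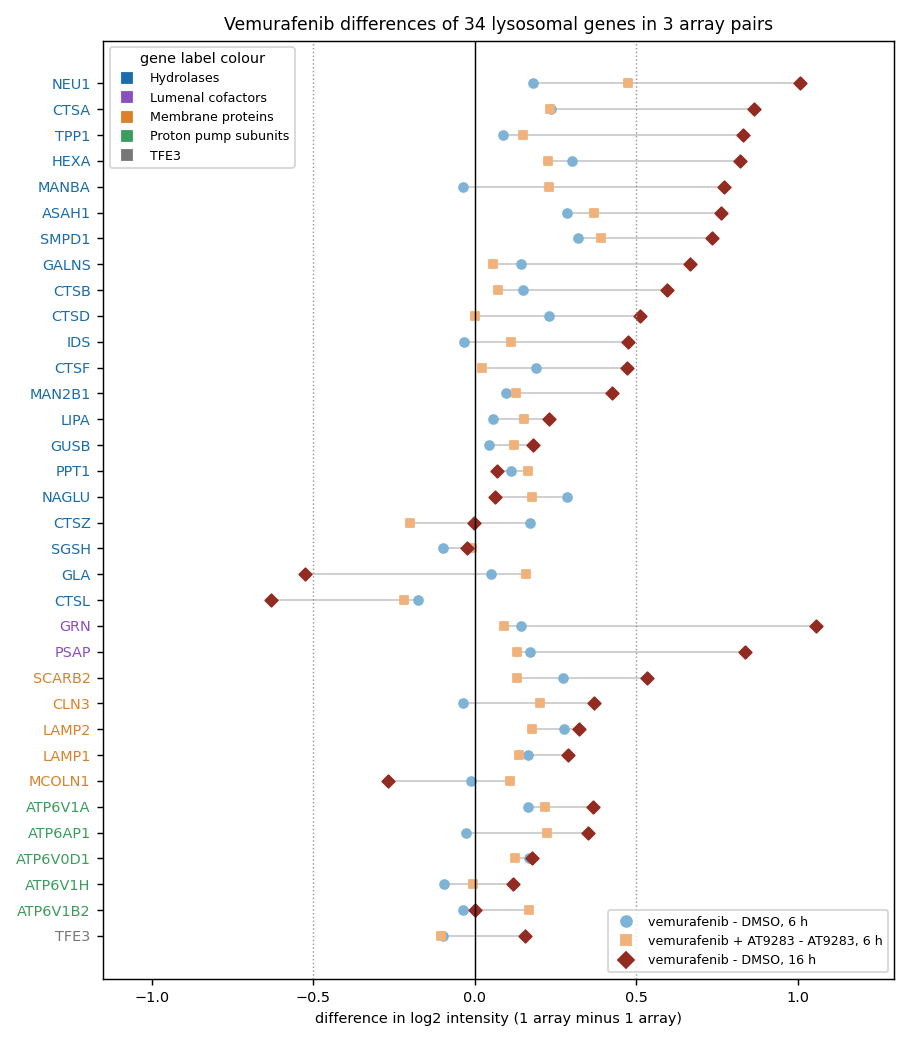
Differences in log2 intensity for the 34 genes at the floor, with 1 symbol per array pair (circles vemurafenib minus DMSO at 6 h, squares both drugs minus AT9283 at 6 h, diamonds vemurafenib minus DMSO at 16 h), grouped by role. The diamonds of 13 genes lie to the right of 0.5 and those of GLA and CTSL to the left of -0.5, while every 6 h symbol lies between -0.22 and 0.47.

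Positive differences in all 3 pairs were more frequent in these genes than among all genes, and negative ones less frequent. Positive vemurafenib differences in all 3 pairs were found for 21 of the 34 genes, beside 35.1% of all genes, and negative ones in all 3 for CTSL and SGSH, beside 27.9%. For 15 genes the 3 vemurafenib arrays all read above the 3 others, beside 19.7% of all genes, and for CTSL they all read below, beside 12.2%. The difference from DMSO was more positive at 16 h than at 6 h in 28 of the 34, beside 47.2% of all genes. It was more positive by at least 0.5 in 9 of them, beside 9.54% of genes, which were CTSA, TPP1, HEXA, NEU1, MANBA, GALNS, IDS, PSAP and GRN.

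By the limma test over the 3 pairs, 0 of the 34 genes passed an adjusted p of 0.05, beside 1.44% of genes called higher and 3.33% called lower. At an unadjusted p under 0.05 there were 9 higher (16.5% of all genes) and 1 lower (14.8%). The lowest adjusted values were those of SMPD1, at 0.48 (SE 0.12, limma adjusted p = 0.0960), and ASAH1, at 0.47 (SE 0.12, limma adjusted p = 0.0989). The test without the 16 h pair, on 1 residual degree of freedom, called CTSA, HEXA, ASAH1, SMPD1, PSAP, LAMP1, LAMP2, SCARB2 and ATP6V1A higher and CTSL lower, 10 of 34 genes (29.4%), but it also called 29.9% of all genes. The lowest limma adjusted p there was 0.0135, for ASAH1.

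Among the hydrolases, 21 of 25 were at the floor. At 16 h of vemurafenib 10 of the 21 were higher and 2 lower, beside 16.0% and 18.0% of all genes. Their median was 0.47, beside -0.00032 for all genes. By substrate the 16 h medians were 0.73 for 3 lipid hydrolases, 0.49 for 8 proteases (the thioesterase PPT1 counted among them), 0.47 for 3 sulfatases and 0.42 for 7 glycosidases. The glycosidases are led by NEU1, the sialidase that removes terminal sialic acid. NEU1 read 8.14 with vemurafenib at 16 h, against 7.13 in DMSO. Its 6 h readings were 6.96 with vemurafenib against 6.78 in DMSO, and 7.34 with both drugs against 6.86 with AT9283. Its 16 h difference was 1.01 (2.01-fold), and the mean over the pairs was 0.55 (SE 0.18, limma adjusted p = 0.131). The vemurafenib array read above its control in each pair, but the groups overlap, because DMSO at 16 h read above vemurafenib at 6 h.

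CTSA encodes cathepsin A, the carboxypeptidase that holds NEU1 in a protective complex. CTSA read 9.14 with vemurafenib and 8.91 in DMSO at 6 h, and 9.92 and 9.05 on the same treatments at 16 h. With both drugs CTSA read 9.09, against 8.85 with AT9283 alone. The 3 vemurafenib arrays were the highest, with a 16 h difference of 0.87 (1.82-fold) and a mean of 0.44 (SE 0.16, limma adjusted p = 0.150).

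HEXA encodes the alpha subunit of beta-hexosaminidase, the enzyme of ganglioside breakdown that is lost in Tay-Sachs disease. HEXA read 9.0 with vemurafenib against 8.70 in DMSO at 6 h, 8.82 with both drugs against 8.59 with AT9283 alone, and 9.48 with vemurafenib against 8.66 in DMSO at 16 h. Again no vemurafenib array lay below a control, and the differences were 0.30 and 0.23 at 6 h and 0.82 at 16 h, the last being 0.47 with the mean of its probe sets. MANBA, the lysosomal beta-mannosidase, read 6.70 with vemurafenib at 16 h against 5.92 in DMSO, close to the floor, a difference of 0.77. Its 6 h difference against DMSO was -0.04. MAN2B1, the alpha-mannosidase, differed by 0.42 at 16 h, GUSB, the beta-glucuronidase, by 0.18 and NAGLU, which degrades heparan sulfate, by 0.06, or -0.07 with each array centred on its median. IDUA, the alpha-iduronidase, lay below the floor on every array, between 5.08 and 5.80.

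The 3 lipid hydrolases had positive differences in every pair. SMPD1, the acid sphingomyelinase that makes ceramide, read 6.65 with vemurafenib at 16 h, against 5.91 in DMSO. Its 6 h readings were 6.43 with vemurafenib against 6.11 in DMSO, and 6.39 with both drugs against 6.00 with AT9283. ASAH1, the acid ceramidase that degrades it, read 8.74 with vemurafenib and 8.45 in DMSO at 6 h, and 9.48 and 8.72 on the same treatments at 16 h. With both drugs ASAH1 read 8.71, against 8.34 with AT9283 alone. For SMPD1 the vemurafenib arrays all lay above the others, whereas for ASAH1 DMSO at 16 h came close to the 6 h vemurafenib arrays and read above the array with both drugs. The 16 h differences were 0.73 for SMPD1 and 0.76 for ASAH1. For ASAH1 the value was 0.50 with the mean of its probe sets, just under the size used, and 0.39 on its probe set not marked as shared. LIPA, the acid lipase of cholesteryl esters, differed by 0.06, 0.15 and 0.23, with every vemurafenib array above the others by a small margin.

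Of the proteases, TPP1, a peptidase lost in a childhood form of neuronal ceroid lipofuscinosis, read 7.0 with vemurafenib against 6.91 in DMSO at 6 h, 7.06 with both drugs against 6.91 with AT9283 alone, and 7.80 with vemurafenib against 6.97 in DMSO at 16 h. The 16 h difference of 0.83 stood apart from 0.09 and 0.15 at 6 h. The cysteine protease CTSB and the aspartic protease CTSD were also higher at 16 h, by 0.60 and 0.51, and CTSF, another cysteine protease, had 0.47, just under the size used. With centring CTSB had 0.46 and CTSD 0.38, and CTSB had 0.49 with the mean of its probe sets and 0.45 without shared ones. CTSZ, a carboxypeptidase, differed by 0.17 against DMSO and by -0.20 against AT9283 at 6 h, and hardly at 16 h. PPT1, the thioesterase that removes fatty acids from proteins, differed by 0.07 at 16 h, or -0.06 after centring.

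CTSL, an endopeptidase related to CTSB, went the other way. CTSL read 9.06 with vemurafenib at 16 h, against 9.69 in DMSO. Its 6 h readings were 9.30 with vemurafenib against 9.48 in DMSO, and 9.25 with both drugs against 9.47 with AT9283. All 3 vemurafenib arrays lay below all 3 controls, with a 16 h difference of -0.63 and a mean of -0.34 (SE 0.12, limma adjusted p = 0.148). GLA, the alpha-galactosidase lost in Fabry disease, read 8.37 with vemurafenib and 8.32 in DMSO at 6 h, and 7.75 and 8.27 on the same treatments at 16 h. With both drugs GLA read 8.43, against 8.27 with AT9283 alone. Only the 16 h vemurafenib array was low, by -0.52 (-0.50 and just short of the size used with quantile normalization), while both 6 h differences were slightly positive.

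The sulfatases remove sulfate groups from glycosaminoglycans and sulfatides. GALNS, which acts on keratan sulfate, was higher at 16 h, at 7.90 with vemurafenib against 7.23 in DMSO, and IDS, the iduronate sulfatase, differed by 0.47, just under the size used. SGSH, a heparan sulfatase, differed by -0.03 at 16 h, and its largest step was between the times, as both 16 h arrays (6.11 with vemurafenib and 6.14 in DMSO) lay below the 4 at 6 h. ARSA, which acts on sulfatide, lay below the floor with a highest reading of 4.86.

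The lumenal cofactors had the largest median at 16 h among the roles, but there are 2 of them. PSAP encodes prosaposin, the precursor of the saposins that present lipids to the hydrolases. PSAP read 10.53 with vemurafenib against 10.36 in DMSO at 6 h, 10.43 with both drugs against 10.30 with AT9283 alone, and 11.24 with vemurafenib against 10.40 in DMSO at 16 h. GRN encodes progranulin, which binds prosaposin and is cut into granulins in the lysosome. GRN read 9.47 with vemurafenib at 16 h, against 8.41 in DMSO. Its 6 h readings were 8.51 with vemurafenib against 8.36 in DMSO, and 8.24 with both drugs against 8.15 with AT9283. The 16 h differences were 0.84 for PSAP and 1.06 (2.08-fold) for GRN, each far from its own 6 h differences of 0.17 and 0.14 against DMSO. On the probe set used, GRN with both drugs differed from DMSO at 6 h by -0.12, whereas its 2 other probe sets at the floor differed by 0.07 and 0.03.

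**Figure D2:**
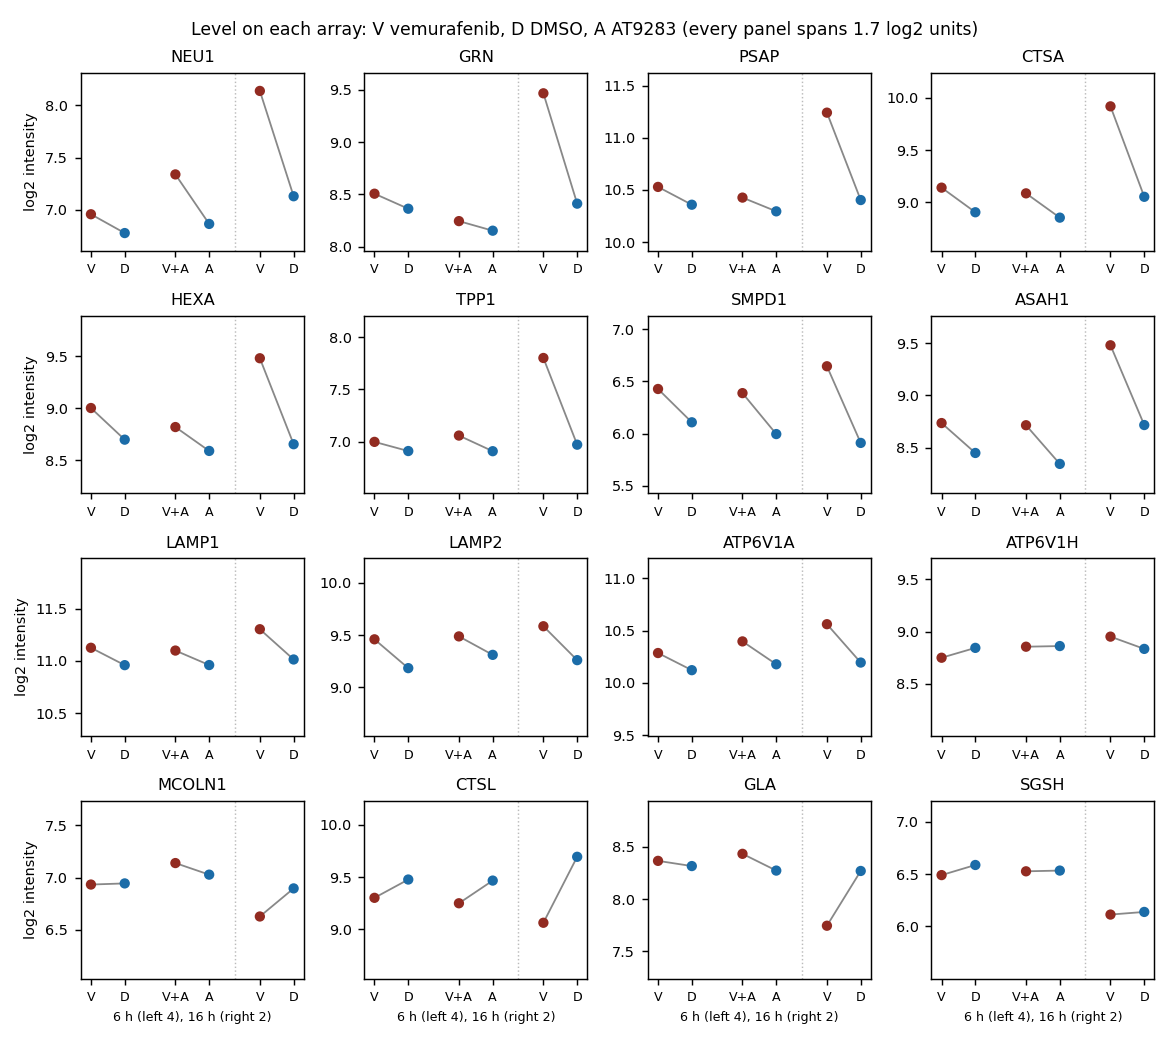
Log2 intensity on each of the 6 arrays for 16 genes (V vemurafenib, D DMSO, A AT9283; lines join the arrays of a pair, red with and blue without vemurafenib; every panel spans the same range). NEU1, GRN, PSAP, CTSA, HEXA and TPP1 stand highest on the 16 h vemurafenib array, CTSL and GLA stand lowest there, and SGSH separates by time.

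Membrane proteins had a 16 h median of 0.32 over 5 genes, beside 0.47 over 21 hydrolases. At 6 h the order was the other, with 0.17 against DMSO beside 0.14 for hydrolases, and against AT9283 the medians were 0.14 and 0.15. Without shared probe sets they were 0.42 and 0.45 at 16 h and 0.27 and 0.11 at 6 h. Of the 5 membrane proteins 1 was higher at 16 h, near the share of 16.0% of all genes. This was SCARB2, the receptor that carries glucocerebrosidase to the lysosome, at 9.76 with vemurafenib against 9.22 in DMSO. Its difference of 0.53 was 0.40 with centring and 0.45 with the mean of its probe sets, both under the size used. LAMP1, a main glycoprotein of the lysosome coat, read 11.12 with vemurafenib and 10.96 in DMSO at 6 h, and 11.30 and 11.01 on the same treatments at 16 h. With both drugs LAMP1 read 11.10, against 10.96 with AT9283 alone. Its vemurafenib arrays all lay above the others, with differences of 0.17, 0.14 and 0.29 and a mean of 0.20 (SE 0.06, limma adjusted p = 0.125). LAMP2, its partner and the receptor of chaperone-mediated autophagy, had the same order, with differences of 0.28, 0.18 and 0.32.

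The size depended on the probe set for LAMP2, which is spliced into several forms. Its 3 other probe sets at the floor had 16 h differences of 0.84, 0.92 and 0.95. With the mean of its probe sets LAMP2 differed by 0.76, so it was higher in that setting, where SCARB2 was not. Of 12 genes with several probe sets at the floor, all 12 had positive 16 h differences on each of them, and the span between probe sets was 0.62 for LAMP2 and 0.0066 to 0.38 for the other 11.

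**Figure D3:**
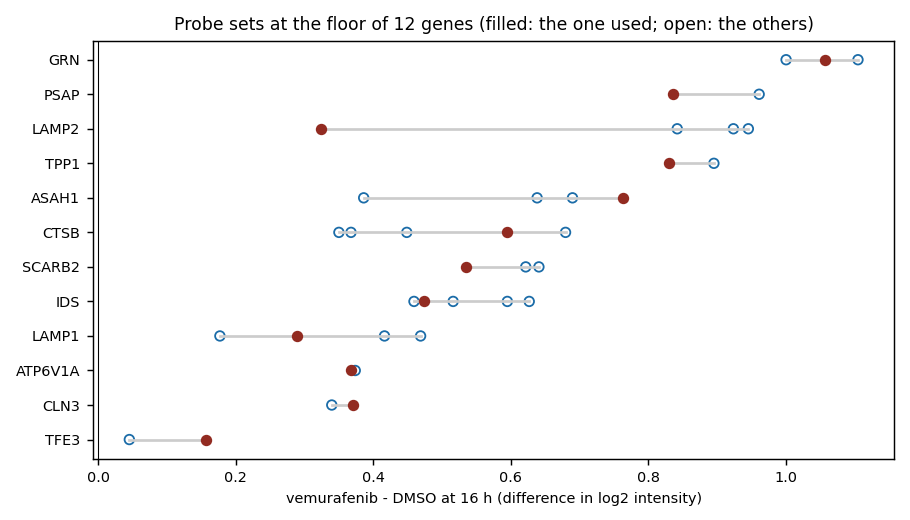
Vemurafenib minus DMSO at 16 h, in log2 intensity, for each probe set at the floor of the 12 genes with several (filled symbols mark the probe set used, open symbols the others). All symbols lie to the right of 0, and LAMP2 has the widest span, from 0.32 to 0.95.

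CLN3, a membrane protein lost in juvenile neuronal ceroid lipofuscinosis, differed by 0.37 at 16 h and by -0.04 at 6 h. MCOLN1, the calcium channel that couples lysosomes to TFEB activation, read 6.93 with vemurafenib against 6.95 in DMSO at 6 h, 7.14 with both drugs against 7.03 with AT9283 alone, and 6.63 with vemurafenib against 6.90 in DMSO at 16 h. Its 16 h vemurafenib array was the lowest of the 6, a difference of -0.27, and its promoter is among the 7 with TCACGTGA, as shown above.

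Among all genes at the floor, 16.0% were higher and 18.0% lower at 16 h of vemurafenib, and 4.56% and 6.82% at 6 h. None of the 5 proton pump subunits reached 0.5 at either time, and for 5 genes a count of 0 is not far from those shares. The pump subunits' medians were 0.18 at 16 h and -0.03 at 6 h against DMSO. For both drugs against AT9283 their median was 0.17, where hydrolases had 0.15. The 6 h median against DMSO was 0.0068 with quantile normalization, 0.0717 with the mean of probe sets and 0.16 without shared probe sets. ATP6V1A, the catalytic subunit, read 10.56 with vemurafenib at 16 h, against 10.19 in DMSO. Its 6 h readings were 10.29 with vemurafenib against 10.12 in DMSO, and 10.40 with both drugs against 10.18 with AT9283. Its differences were positive in every pair, at 0.16, 0.22 and 0.37, and the mean was 0.25 (SE 0.07, limma adjusted p = 0.121). ATP6AP1, an accessory subunit, differed by 0.35 at 16 h and -0.03 at 6 h, and ATP6V0D1, of the membrane sector, by 0.18 and 0.17. ATP6V1B2 and ATP6V1H, both of the soluble sector that splits ATP, differed by 0.00 and 0.12 at 16 h, or -0.13 and -0.01 with each array centred on its median. That centring gave the pump subunits a 16 h median of 0.0446. All 3 pairs were positive for ATP6V1A and ATP6V0D1, which is 2 of 5 pump subunits, beside 35.1% of all genes, so near that share. The counts were 14 of 21 for hydrolases and 3 of 5 for membrane proteins.

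The 16 h medians of the roles were then set beside those of other lysosomal genes of the same roles, none of which are among the 39. Those genes too were chosen with earlier results of these data known. At 16 h the median was 0.75 for 13 other hydrolases, 0.31 for 12 other membrane proteins and 0.05 for 13 other pump subunits. Of these 8, 4 and 1 were higher and 1, 0 and 1 were lower by at least 0.5, beside 16.0% and 18.0% of all genes. For 3 other lumenal cofactors the median was 0.70 and the lowest value -0.225, with 2 higher and 0 lower by at least 0.5. Among the hydrolases DNASE2, which degrades DNA, differed by 1.24, CTSK by 1.14 and CTSC, which activates other proteases, by -1.03. SIDT2 and ABCB9, both transporters of the lysosome membrane, differed by 1.71 and 1.5, and GPNMB, a melanosomal and lysosomal glycoprotein under MITF control, by 1.93. CTSK, ABCB9 and the pump subunit ATP6V1E2 were at the floor at 16 h on the vemurafenib array alone. They could enter these counts only as higher, and the difference of ATP6V1E2 was 0.38. ATP6V0A2 was at the floor on the DMSO array alone, so it could enter only as lower. Of 62 other lysosomal, sorting and TFEB control genes in the limma fit, 0 passed in either direction, the lowest adjusted p being 0.0506 for MITF. The difference between roles has no test here, since genes of a role are not replicates.

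**Figure D4:**
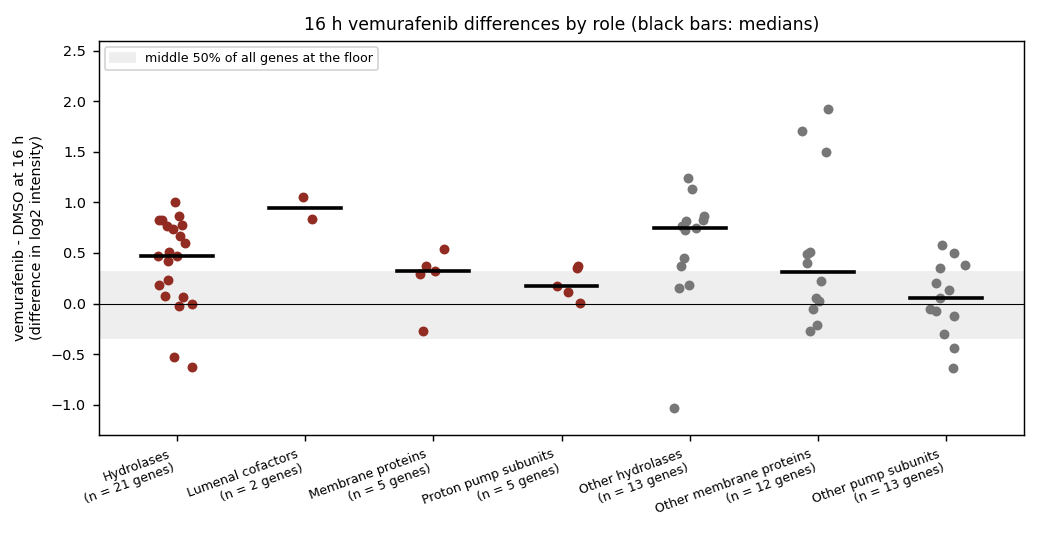
Vemurafenib minus DMSO at 16 h, in log2 intensity, with 1 point per gene at the floor and a black bar at the median of each role (red: the genes described here; grey: other lysosomal genes). The grey band holds the middle 50% of all genes, from -0.34 to 0.32, and the medians of both sets of hydrolases lie above it while those of both sets of pump subunits lie inside it.

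The transcription factors that bind the E-box differed among themselves. TFEB lay below the floor on every array. TFEB read 5.24 with vemurafenib and 4.94 in DMSO at 6 h, and 5.90 and 4.80 on the same treatments at 16 h. With both drugs TFEB read 5.14, against 4.98 with AT9283 alone. Its 16 h difference of 1.10 was thus between values under the floor, and its other probe set had 0.39. TFE3 read 9.48 with vemurafenib at 16 h against 9.32 in DMSO, a difference of 0.16, and had -0.10 at 6 h. MITF, which is not among the 39 genes, differed by 0.61, 0.39 and 0.63 in the 3 pairs, a mean of 0.54 (SE 0.09, limma adjusted p = 0.0506). The 16 h median was 0.47 over 9 genes at the floor with CACGTG in the promoter window shown above, and 0.29 over 14 without it, with overlapping ranges of -0.27 to 1.01 and -0.63 to 1.06. With TCACGTGA the medians were 0.33 over 6 genes and 0.42 over 17 without it, so the longer motif gave the opposite order. At 16 h, 4 of the 9 genes with CACGTG and 4 of the 14 without it were higher by at least 0.5. For TCACGTGA these counts were 2 of 6 with it and 6 of 17 without it.

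AT9283 alone left these genes, like nearly all genes at the floor, close to their DMSO levels at 6 h. None of the 34 differed by 0.5 in either direction, beside 0.224% of all genes higher and 0.0783% lower, so near those shares. The differences ran from -0.21 (GRN) to 0.22 (CTSZ) with a median of -0.02. Of the 34, 12 were above 0, beside 55.8% of all genes. Over both pairs with AT9283, limma called 0 of the 34 genes and 0 of 9707 genes in all, and at an unadjusted p under 0.05 it called 0 of the 34, beside 2.32% of genes.

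Between both drugs and vemurafenib alone the median difference of the 34 genes was 0.0036 at 6 h, with 17 above 0, beside 57.8% of genes. None differed by 0.5, beside 0.645% of genes higher and 1.46% lower, and the extremes were GRN at -0.26 and NEU1 at 0.38. Against DMSO the combination had a median of 0.10 with 29 of 34 above 0, beside 59.7% of genes, and NEU1 (0.56) was the 1 gene that was higher (none against the mean of the DMSO arrays), beside 3.92% of genes, with 0 lower, beside 5.17%. This comparison shares its DMSO array with that of vemurafenib alone. Both drugs against AT9283 alone, which shares no array with vemurafenib against DMSO, put 28 of the 34 above 0, beside 58.0% of genes, with none over 0.5, beside 2.71%, and none lower, beside 5.48%. The DMSO arrays of 16 h and 6 h differed by a median of -0.0058 in these genes, with 16 above 0, beside 42.8% of genes, and none past 0.5, beside 2.30% of genes higher and 2.05% lower.

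**Figure D5:**
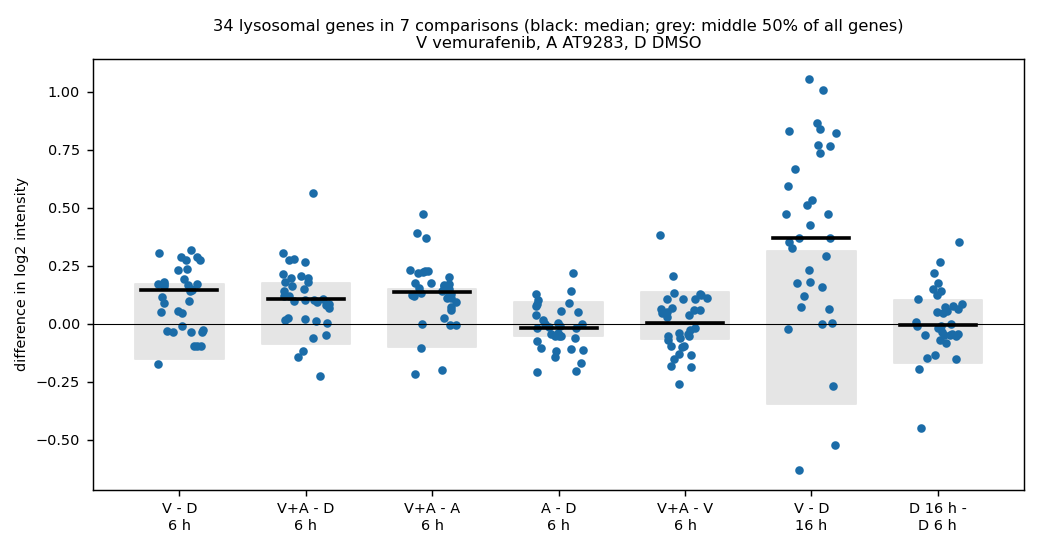
Differences in log2 intensity of the 34 genes in 7 comparisons (V vemurafenib, A AT9283, D DMSO; black bars medians, grey bands the middle 50% of all genes at the floor; several comparisons share an array). The medians are 0.37 for vemurafenib at 16 h, 0.10 to 0.14 in the 3 comparisons of vemurafenib at 6 h, and between -0.02 and 0.0036 where vemurafenib does not differ.

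GAA and FUCA1 have their main probe sets on misaligned rows. The 2 arrays of 16 h are not affected by that, and GAA, the acid alpha-glucosidase lost in Pompe disease, read 6.48 with vemurafenib against 5.75 in DMSO at 16 h, a difference of 0.73. FUCA1, the alpha-fucosidase, read 8.09 with vemurafenib against 8.38 in DMSO, a difference of -0.29. With the 6 h values placed in the other order, an alternative added after seeing the data, GAA differed by 0.13 and 0.30 at 6 h and FUCA1 by -0.35 and -0.26. The FUCA1 differences were negative in all 3 pairs, with a mean of -0.30 that did not pass (SE 0.07, limma adjusted p = 0.0832). For GAA the other 5 arrays lay below the floor, which it reached on the 16 h vemurafenib array alone.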

How the data were processed

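The authors deposited 1 table with a linear intensity per probe set for 6 arrays, made with RMA per the submitters' processing notes. Neither its version nor whether all arrays were normalized together is stated there. The log2 of each deposited intensity was used. Genes were assigned by the platform annotation: 41097 of 54675 probe sets name 1 gene, 1801 name several and 11777 are unlisted, and probe sets naming 1 gene were used. A gene's brightest probe set by mean was kept.

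In 1118 rows (2.04%) the 6 h values sit on other rows than the 16 h values, as if sorted with punctuation first. The DMSO arrays of both times correlated across these rows with r = 0.455 as deposited and 0.984 in the other order, against 0.992 over 53495 other rows. These rows, 16 of them outside the ranges that the choice of members names, and 62 control probe sets were left out.

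Each condition has 1 array, taken from its label, and the number of arrays limits the precision. limma 3.58.1 in R 4.3.3 was fitted to genes with at least 1 array at log2 6, with terms for vemurafenib, AT9283 and time, a trended prior and Benjamini-Hochberg adjustment over 9707 genes. In simulated data on 9707 genes, the fit for the vemurafenib effect over 3 pairs recovered 18% of 50 planted changes of 0.3, 66% at 0.5 and 100% at 1. The simulation gave every gene the same independent noise and each planted change the same size on all 3 vemurafenib arrays. In the data the spread differs between genes and the effect changes between pairs, so these shares do not give the recovery there. The members and lists were chosen with earlier results of these data known. The genes named are all 39 members, other lysosomal genes that differ by at least 1 in a vemurafenib pair, MITF, DUSP6 and cell type markers. ATP6V0A2 and ATP6V1E2 are named too, for their place at the floor at 16 h. Alternatives covered scaling, probe set choice, the left-out rows, the floor, the control, the fit's terms and each pair left out.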

Additional observations from a re-analysis of the deposited data

Results flagged for a closer look

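GLA was flagged because its vemurafenib difference was below -0.5 at 16 h and slightly positive at 6 h. It was -0.52 at 16 h, against 0.05 and 0.16 in the 2 pairs at 6 h. That change with time was not tested. Other genes also changed sign against DMSO, but mostly in the opposite direction. MANBA went from -0.04 at 6 h to 0.77 at 16 h and TFE3 from -0.10 to 0.16. IDS, CLN3, ATP6AP1, ATP6V1B2 and ATP6V1H also turned from negative to positive. With each array centred on its median, ATP6V1B2 and ATP6V1H were at -0.13 and -0.01 at 16 h. From positive to negative, CTSZ went from 0.17 to -0.00057.

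GAA had a difference on a row that the comparisons do not use. It was 0.73 between vemurafenib and DMSO at 16 h, with the vemurafenib array at 6.48 and the DMSO array below the floor at 5.75.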

How the results depend on the processing

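Of the recomputed values of the main results 289 stayed within 1.5 times of a count or within 0.127 of a median and 22 did not, 0.127 being the SD of all genes between AT9283 and DMSO at 6 h, which stands in for replicate error. Centring each array on its median shifted all genes at 16 h by -0.13 and gave 16 h medians of 0.24 for the members, 0.34 for hydrolases, 0.19 for membrane proteins and 0.0446 for pump subunits. It gave 10 members higher and 2 lower at 16 h, beside 11.4% and 24.3% of genes, and turned PPT1, NAGLU, ATP6V1B2 and ATP6V1H to between -0.01 and -0.13. Between the DMSO arrays 1 member was then lower by 0.5. Quantile normalization left 1 member lower at 16 h. With the mean of all probe sets 8 members were higher at 16 h, and without probe sets marked as shared 7 were higher and 1 lower, while the 6 h median of pump subunits was 0.16; fewer genes were measured in both. With the misaligned rows kept as deposited, 1 member was higher and 1 lower between the DMSO arrays. With no floor, 1 member was lower between both drugs and AT9283 and 1 was higher with AT9283 against DMSO. Against the averaged DMSO arrays, 0 members were higher by 0.5 with both drugs.

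The limma fit called 463 of all genes and 0 members. It called 297 genes with the mean of all probe sets. Without AT9283 as a term it called 1332 genes and, among the members, ASAH1 and SMPD1, so 2. Leaving out 1 pair, it called between 23 and 2758 genes and between 0 and 10 members, the highest without the 16 h pair; the causes were not tested. The AT9283 and time terms of the fit are the same as a block for each array pair, and the labels give no replicate numbers for another block. No alternative turned a member's 16 h difference of 0.5 or more to the other sign.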
